A study of Mus musculus with 6 samples.

Results

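The keratin gene family was examined in EpRas, a mouse mammary tumor cell line, after prolonged exposure to TGF-β1, a cytokine that drives epithelial cells toward a mesenchymal state. Members were all genes whose symbol is Krt followed by a digit and whose probe set carries that symbol alone, which gave 51 keratin genes of 18820 genes measured in this way. They comprised 28 type I and 23 type II keratins. Each had 1 probe set, and 1 further probe set that carries the symbols Krt83, Krt87 and Krt81 together was left out, since its signal cannot be assigned to a single gene. Of the type I genes, 27 lie on chromosome 11, and Krt18 lies on chromosome 15 beside the 23 type II genes. The long-term EMT group consisted of 3 arrays of EpRas cells treated with 2 ng/ml TGF-β1 for 14 days, and the control group of 3 arrays of EpRas cells left untreated for the same time. Both groups share the BALB/c background, the EpH4 mammary epithelial origin and stable overexpression of the Ha-Ras oncogene, and they represent a single cell line. RNA was taken from triplicate wells, and the study's statistics section speaks of independent experiments in general without tying them to the arrays, so p-values reflect only how much these wells varied, which may be technical variation.

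Keratins are the intermediate filament proteins of epithelial cells. A filament forms only from pairs of an acidic type I and a basic type II keratin, and each kind of epithelium makes its own pairs, with Krt8 and Krt18 in simple epithelia such as the luminal layer of the mammary gland, Krt5 and Krt14 in basal cells, and Krt6, Krt16 and Krt17 in wounded or stressed epithelium. The filaments are anchored by plakin proteins at desmosomes and hemidesmosomes. During epithelial-mesenchymal transition (EMT), epithelial cells can reduce their keratins while the filament protein vimentin becomes prominent.

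The type II genes Krt7 and Krt8 and the type I gene Krt18 lie in the same cluster on chromosome 15, and were measured far above background in the control group. Krt7 was lower in long-term EMT cells, whereas Krt8 and Krt18 stayed close to the control level, so the start regions of these 3 genes are shown for comparison. Each sequence runs 5′ to 3′ from 250 bases before to 50 bases after the annotated gene start (RefSeq, build GRCm38.p6). Capitals mark the E-box CACCTG, a sequence bound by the EMT factors of the Zeb and Snail families, the GC box GGGCGG and the TATA box TATAAA, each searched on both strands.
Krt7 (chr15:101412153-101412452, plus strand): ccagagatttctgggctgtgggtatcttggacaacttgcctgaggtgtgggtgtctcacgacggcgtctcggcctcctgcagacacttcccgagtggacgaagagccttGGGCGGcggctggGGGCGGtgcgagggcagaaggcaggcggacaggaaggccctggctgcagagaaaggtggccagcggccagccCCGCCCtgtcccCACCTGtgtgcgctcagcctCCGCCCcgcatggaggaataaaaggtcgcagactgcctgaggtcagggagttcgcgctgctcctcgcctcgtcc
Krt8 (chr15:102004293-102004592, minus strand): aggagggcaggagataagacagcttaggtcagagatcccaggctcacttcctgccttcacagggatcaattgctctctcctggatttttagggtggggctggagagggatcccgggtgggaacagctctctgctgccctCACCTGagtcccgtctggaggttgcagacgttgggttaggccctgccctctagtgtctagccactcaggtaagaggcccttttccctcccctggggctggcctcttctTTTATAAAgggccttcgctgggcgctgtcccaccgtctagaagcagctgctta
Krt18 (chr15:102027966-102028265, plus strand): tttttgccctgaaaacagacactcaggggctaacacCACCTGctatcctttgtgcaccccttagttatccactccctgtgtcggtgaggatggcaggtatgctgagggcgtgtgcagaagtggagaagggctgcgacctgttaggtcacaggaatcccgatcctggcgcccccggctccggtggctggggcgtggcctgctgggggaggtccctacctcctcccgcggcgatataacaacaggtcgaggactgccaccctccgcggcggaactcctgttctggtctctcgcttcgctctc

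The start regions of Krt7, Krt8 and Krt18 each held 1 E-box, which began at position -44 in Krt7, -111 in Krt8 and -214 in Krt18 relative to the gene start. The Krt7 region had 4 GC boxes, and those of Krt8 and Krt18 had 0. The Krt8 region had 2 TATA box matches that overlap on opposite strands, and those of Krt7 and Krt18 had 0. The Krt8 matches began at positions -3 and -1 and so run across the annotated gene start. Regions were found for 36 of the 51 measured keratins. Over the 37 keratin regions in the table, 40.5% held the E-box, 5.41% the GC box and 51.4% the TATA box. Among all 32851 regions of the same length, the shares were 20.2% for the E-box, 35.7% for the GC box and 13.6% for the TATA box. These matches describe the letters only. The entry for Krt14 begins 1480 bases inside the gene and is therefore not shown.

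Levels are given as log2 values of the Robust Multi-array Average (RMA), so that a difference of 1 is a 2-fold change. A probe set passed the test when the limma fit over all 35556 probe sets gave a Benjamini-Hochberg adjusted p under 0.05 and a fold change above 1.5. The background level was set at 4.48, the 95th percentile of 1006 probe sets for olfactory receptors, which mammary cells are not expected to use. At least 1 group mean was above this level for 30 of the 51 keratins (14 type I and 16 type II). The distributions of the 6 arrays were alike, with lower quartiles between 4.01 and 4.06 and upper quartiles between 8.46 and 8.49. Over all probe sets, long-term EMT arrays correlated with each other at r = 0.993 to 0.996 and with control arrays at r = 0.975 to 0.989, while control replicate 1 stood somewhat apart from control replicates 2 and 3 (r = 0.987 and 0.984), which correlated at r = 0.995. The epithelial identity of the cells was checked with 7 markers, of which 3 fell in long-term EMT cells (Cdh1, Epcam and Cldn7). Of all probe sets, 0.928% fell. The summed unlogged level of the 7 markers was 14103 to 15281 in long-term EMT arrays and 16239 to 21726 in control arrays. Krt8 and Krt18 are among the 7 and make up most of this sum, so it says little about the other markers. The 7 probe sets had a mean above background.

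Most keratins differed little between the groups. Of the 51 keratins, 2 fell in long-term EMT cells (Krt7 and Krt14), 0 rose and 49 did not pass the test. In comparison, 0.928% of all probe sets fell and 0.993% rose. At an unadjusted limma p under 0.05 without a fold threshold, 3 of the 51 keratins were lower and 0 higher, where 6.23% of all probe sets were lower and 7.3% higher, so the lower keratins were about as frequent as in the background. The methods' t-test with a fold above 1.5 gave 2 lower and 0 higher keratins, beside 688 lower and 638 higher of all 35556 probe sets. The median log2 fold change was 0.06 over the 28 type I keratins and 0.04 over the 23 type II keratins, beside 0.02 over all probe sets. The lowest and the highest change were -2.22 and 0.79 among type I and -2.11 and 0.16 among type II keratins, and each type contained 1 of the genes that fell.

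**Figure D1:**
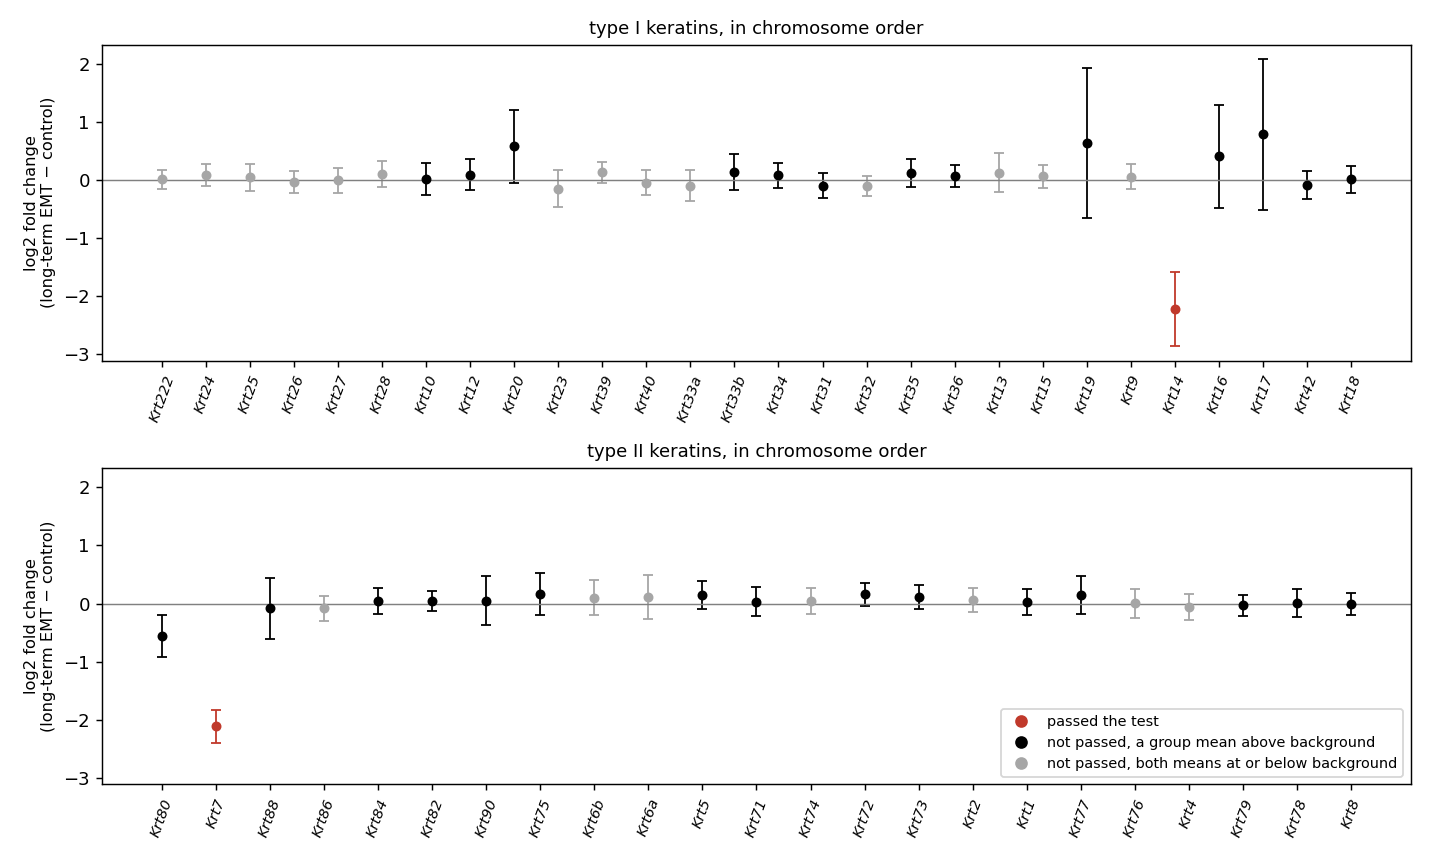
Log2 fold change (long-term EMT minus control, vertical axis) of each of the 28 type I (upper panel) and 23 type II (lower panel) keratins in chromosome order, with Krt18 of chromosome 15 placed last among type I. Points are estimates and bars 95% confidence intervals of the limma fit (3 arrays per group). Krt14 and Krt7, in red, are the genes that passed, and the wide intervals of Krt19, Krt16 and Krt17 reach across 0.

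Among the keratins of simple epithelia, Krt7 fell and its lower level was seen on every array. Krt7 is a type II keratin of glandular and ductal epithelium, including the mammary gland. Its log2 level was 9.47, 9.80 and 9.83 in long-term EMT cells (replicates 1 to 3), against 11.88, 11.81 and 11.75 in control cells. The groups were far apart, and the values within a group lay close together. The difference was -2.11 ± 0.12 (SE, n = 3 each, 95% confidence interval -2.40 to -1.83), which is 4.33-fold lower (limma adjusted p = 0.00144). It passed in 6 of 6 fits that each left out an array, with a log2 fold change between -2.18 and -2.00. In these bulk samples, fewer cells that express a keratin and less of its RNA per cell cannot be told apart.

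Krt8 and Krt18, the defining filament pair of simple epithelium, kept nearly the same level in both groups. The log2 level of Krt8 was 12.79, 12.70 and 12.88 in long-term EMT cells, against 12.81, 12.78 and 12.79 in control cells. That of Krt18 was 12.58, 12.59 and 12.54 in long-term EMT cells, against 12.74, 12.48 and 12.46 in control cells. The values of the groups overlapped for both genes. The estimated difference was 0.00 for Krt8 (95% confidence interval -0.19 to 0.19) and 0.01 for Krt18 (-0.23 to 0.25), with limma adjusted p = 0.994 and adjusted p = 0.984. As a ratio of long-term EMT over control, these intervals span 0.875 to 1.14 for Krt8 and 0.854 to 1.19 for Krt18, so that a change of 1.5-fold lies outside both.

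Krt80, a type II keratin whose gene is the measured neighbour of Krt7, also had lower values in long-term EMT cells without passing the test. Its log2 level was 7.03, 6.86 and 7.37 in long-term EMT cells, against 7.61, 7.55 and 7.79 in control cells. All 3 long-term EMT arrays were below all 3 control arrays, but the highest and the lowest of the 2 groups lay near each other. The difference was -0.56 ± 0.15 (SE, n = 3 each, 95% confidence interval -0.92 to -0.21, limma adjusted p = 0.148). On the other side of Krt7, Krt88 averaged 5.10 in long-term EMT cells and 5.18 in control cells.

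The remaining simple epithelial keratins are type I genes. Krt19, the smallest type I keratin and a luminal mammary marker, was at 7.07, 5.15 and 5.01 in long-term EMT cells, against 5.25, 5.07 and 4.98 in control cells. Only long-term EMT replicate 1 was high, and the other 5 arrays lay close together. The difference of 0.64 ± 0.54 (SE, n = 3 each) did not pass (limma adjusted p = 0.709) and was -0.02 without that array. Krt20, a keratin of intestinal and bladder lining, was at 5.68, 4.75 and 4.78 in long-term EMT cells, against 4.66, 4.39 and 4.42 in control cells. Here the groups did not overlap, yet again replicate 1 was the highest. The difference was 0.58 ± 0.26 (SE, n = 3 each, limma adjusted p = 0.415) and 0.28 without that array. Krt23 was not above background, at 3.96, 4.06 and 3.87 in long-term EMT cells, against 4.36, 3.90 and 4.08 in control cells.

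**Figure D2:**
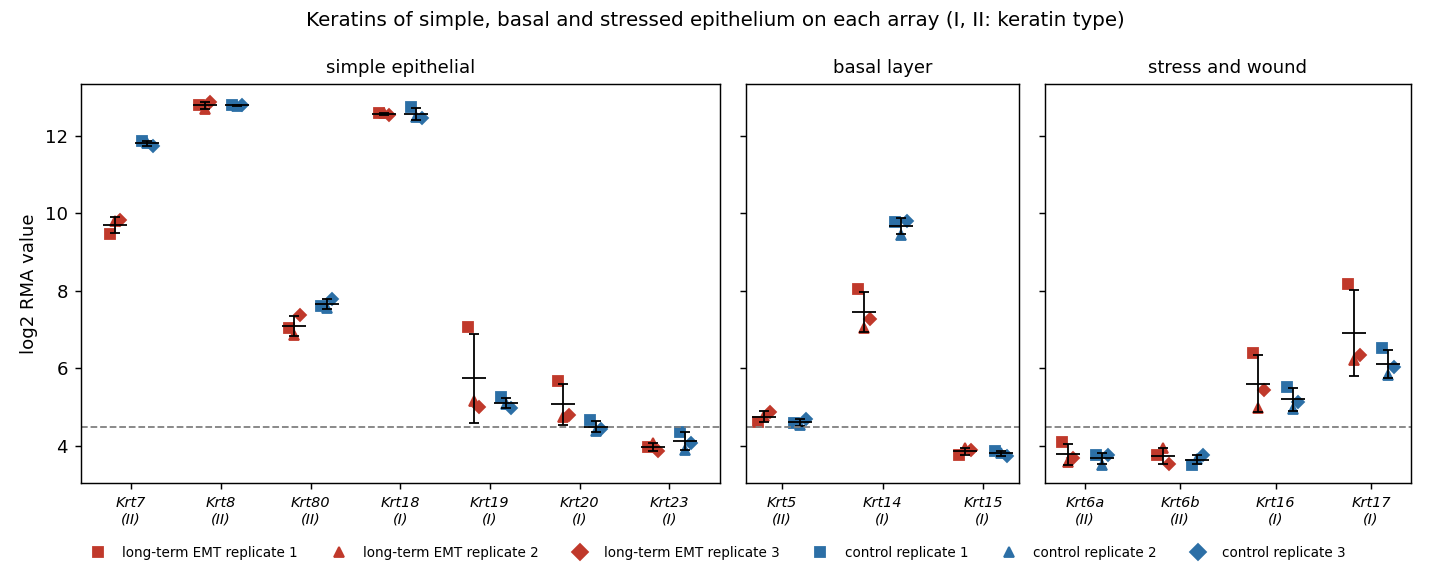
Log2 RMA level (vertical axis) of the 14 keratins of simple, basal and stressed epithelium on each array, long-term EMT in red to the left of control in blue, with marker shape giving the replicate. Bars show the group mean ± SD (n = 3 each) and the dashed line the background level of 4.48. Krt7 and Krt14 are lower on every long-term EMT array than on every control array, Krt8 and Krt18 overlap, and long-term EMT replicate 1 (square) is the highest array for Krt16, Krt17, Krt19 and Krt20.

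Among the basal keratins, Krt14 fell while its usual type II partner Krt5 was near background in both groups. Krt14 is the type I keratin of basal and myoepithelial cells. Its log2 level was 8.04, 7.04 and 7.27 in long-term EMT cells, against 9.77, 9.44 and 9.81 in control cells. The groups were far apart, although long-term EMT replicate 1 was clearly above replicates 2 and 3. The difference was -2.22 ± 0.27 (SE, n = 3 each, 95% confidence interval -2.87 to -1.58), which is 4.67-fold lower (limma adjusted p = 0.0144). Its size stayed between -2.52 and -2.02 when each array was left out, but it passed in 3 of 6 of these fits. The adjusted p was 0.0621 without long-term EMT replicate 2, 0.0772 without long-term EMT replicate 3 and 0.0582 without control replicate 2.

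Krt5 was at 4.61, 4.76 and 4.88 in long-term EMT cells, against 4.59, 4.53 and 4.70 in control cells (difference 0.14, limma adjusted p = 0.636). These values are barely over the background level of 4.48, so a change in Krt5 would be hard to detect. Krt15, a type I keratin of basal cells and hair follicle stem cells, was below background on every array, at 3.76, 3.94 and 3.88 in long-term EMT cells, against 3.85, 3.81 and 3.74 in control cells. Of 7 basal mammary markers (Krt5 and Krt14 among them), 1 fell, which is Krt14 itself, beside 0.928% of all probe sets. The summed unlogged level of the 7 markers was 1107 to 1174 in long-term EMT arrays and 1129 to 1923 in control arrays. The groups overlapped in this sum, most of which comes from Krt14 itself and Acta2. Acta2 was at 9.61, 9.73 and 9.81 in long-term EMT cells, against 6.22, 8.56 and 9.81 in control cells (limma adjusted p = 0.529). Trp63 was at 5.07, 5.04 and 5.04 in long-term EMT cells, against 6.50, 5.35 and 5.29 in control cells (limma adjusted p = 0.457). The part of basal-like cells in the Krt14 values was not tested.

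Among the stress and wound keratins, the type II genes were not above background. The type I genes were above background on every array, and their group differences were carried by long-term EMT replicate 1. The log2 level of Krt17 was 8.18, 6.20 and 6.34 in long-term EMT cells, against 6.52, 5.82 and 6.02 in control cells. Long-term EMT replicate 1 stood alone, and the other 2 arrays of the group fell within the range of the controls. The difference of 0.79 ± 0.54 (SE, n = 3 each) did not pass (limma adjusted p = 0.633) and was 0.15 without that array. Krt16 was at 6.40, 4.96 and 5.44 in long-term EMT cells, against 5.51, 4.94 and 5.13 in control cells. The pattern was the same, and the difference of 0.41 ± 0.37 (SE, n = 3 each, limma adjusted p = 0.737) was 0.01 without replicate 1. Krt6a was at 4.09, 3.57 and 3.69 in long-term EMT cells, against 3.76, 3.50 and 3.75 in control cells, and Krt6b at 3.76, 3.94 and 3.53 in long-term EMT cells, against 3.51, 3.66 and 3.75 in control cells. Both stayed below background. Krt14, Krt16 and Krt17 are close in sequence, as are Krt6a and Krt6b, so that their probe sets can share signal.

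In long-term EMT replicate 1, 3 of the 51 keratins were more than 1 log2 unit above the mean of replicates 2 and 3, compared with 203 of all probe sets (0.571%). These were Krt19 (by 1.99), Krt17 (by 1.91) and Krt16 (by 1.20), followed by Krt20 (by 0.915) and Krt14 (by 0.885), all of type I. Among type II keratins, Krt6a was the highest in this array (by 0.46), and Krt7 was lower by 0.345 on the log2 scale than in the other 2 arrays. The genes of Krt19, Krt14, Krt16 and Krt17 lie near each other on chromosome 11. Krt15 and Krt42 flank them, and Krt9 lies between Krt19 and Krt14. In replicate 1, Krt15, Krt42 and Krt9 differed from the other 2 arrays by -0.15, -0.09 and 0.17, in this order. Krt15 and Krt9 were below background on every array, so a change in either would be hard to detect. The part of gene position in the keratin values was not tested. Of the 7 epithelial markers, 3 were more than 0.5 log2 units higher in replicate 1 than in the mean of replicates 2 and 3, 0 were as far lower and 4 lay within this distance, Krt8 and Krt18 among them. Of 18 transcription factors of keratin genes or epithelial differentiation, 1 was higher by this measure and 17 lay within it. Epcam, an epithelial adhesion protein, was at 6.73 in long-term EMT replicate 1, against 5.80 and 5.86 in replicates 2 and 3, and Elf3, an epithelial transcription factor, at 6.06 against 5.13 and 5.07. Cldn7, an epithelial claudin, was at 5.71 against 5.77 and 5.79. The part of these genes in the keratin values was not tested. No keratin differed by more than 1 log2 unit in control replicate 1 from the other 2 controls. By this measure, 777 of all probe sets were higher in it and 577 lower. Keratins differed there by -0.42 to 0.60. Krt17, Krt16, Krt20 and Krt19 were higher in this control too, by 0.60, 0.475, 0.255 and 0.225, and Krt14 by 0.145. They did not stand out there, since Krt88, Krt23, Krt33b and Krt18 were higher by 0.48, 0.37, 0.345 and 0.27. In long-term EMT replicate 1, Krt88, Krt23, Krt33b and Krt18 differed by -0.58, -0.005, -0.185 and 0.015. Epcam was higher in control replicate 1 by 1.135, Elf3 by 1.83 and Cldn7 by 0.95.

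**Figure D3:**
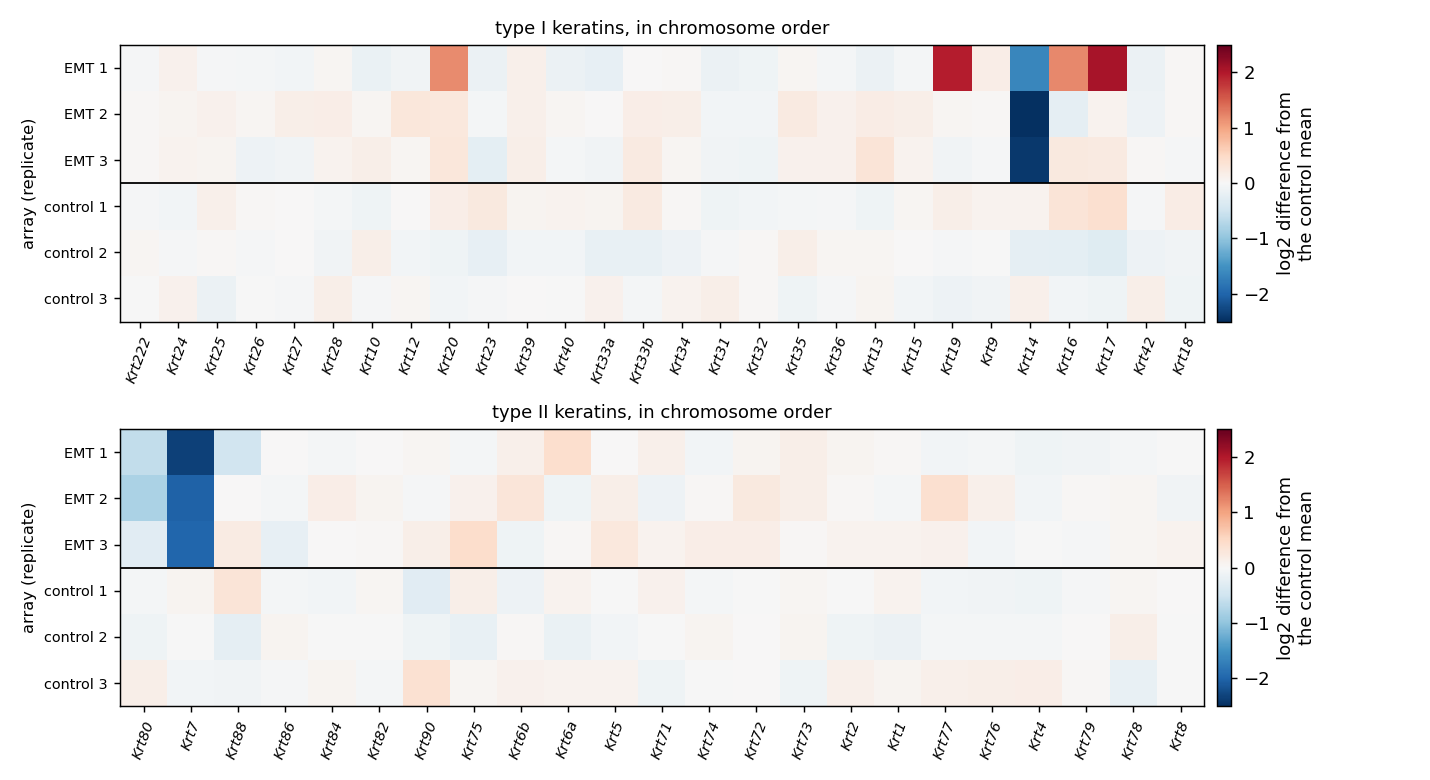
Log2 difference of each keratin on each array from the mean of the 3 controls (colour scale, red higher and blue lower), with long-term EMT arrays above the line and control arrays below it. Krt7 and Krt14 are lower on all 3 long-term EMT arrays, and Krt16, Krt17, Krt19 and Krt20 stand out on long-term EMT replicate 1.

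**Figure D4:**
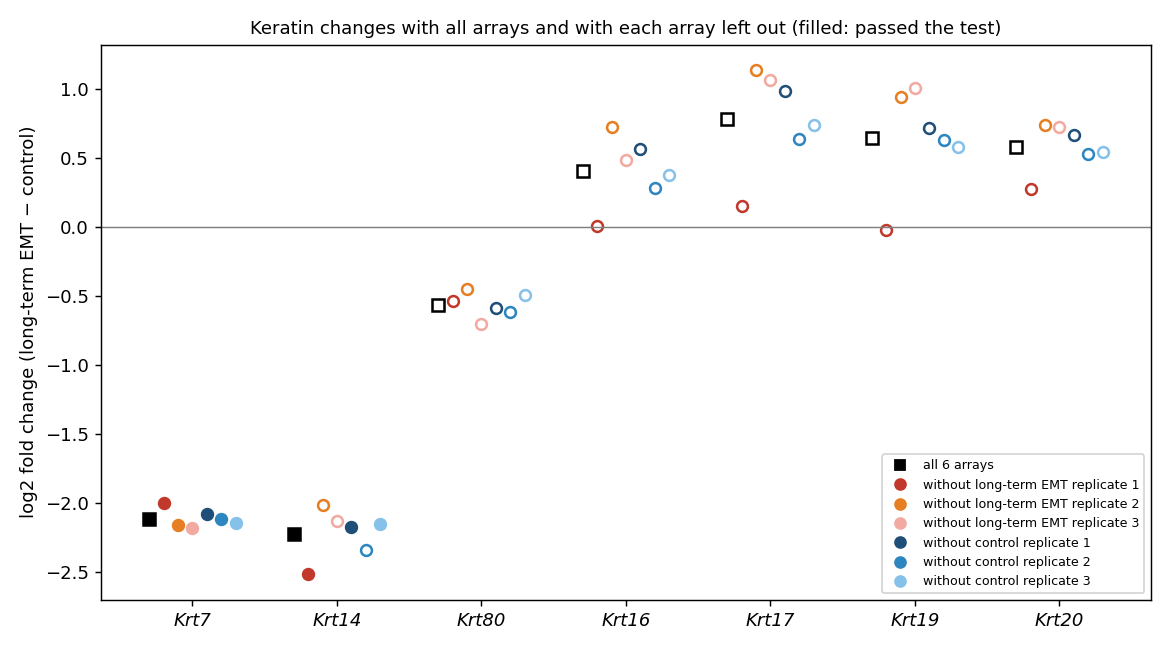
Log2 fold change (long-term EMT minus control, vertical axis) of 7 keratins with all 6 arrays (square) and with each array left out in turn (circles), filled where the test was passed. Krt7 stays filled throughout, Krt14 is filled in 3 of 6, and the differences of Krt16, Krt17 and Krt19 shrink to 0.01, 0.15 and -0.02 without long-term EMT replicate 1.

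Since filaments need a partner of each type, the change of the type II gene was compared with that of the type I gene in 7 pairs, with exact two-sided permutation tests over the 6 arrays and Benjamini-Hochberg adjustment over the pairs. With 3 arrays against 3 the smallest possible p is 0.1, so no pair could pass. The change of Krt8 differed from that of Krt18 by -0.01 (exact p = 1). The change of Krt7 was lower than that of Krt19 (difference -2.76, exact p = 0.1, adjusted p = 0.35), and the difference was -1.98 without long-term EMT replicate 1. The change of Krt5 was above that of Krt14 by 2.37 (exact p = 0.1, adjusted p = 0.35). In these pairs, 1 partner thus fell while the other did not pass the test. Krt5 was barely over background, and Krt19 lay at 4.98 to 5.25 on all arrays but long-term EMT replicate 1. A fall of either could hardly be seen, so the 2 differences rest mainly on Krt7 and Krt14. The differences were -0.29 for Krt6a and Krt16, -0.67 for Krt6a and Krt17, and 0.01 for the suprabasal epidermal pair Krt1 and Krt10, with exact p between 0.3 and 1. Krt6a was not above background in either group, so these 2 differences rest on Krt16 and Krt17. Krt4 and Krt13, a pair of oral and oesophageal epithelium, were both not above background, and their difference is not interpreted.

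The other 37 keratins belong to skin layers, hair or less studied classes, and 20 of them had a group mean above background. None of these 20 passed, 0 had an unadjusted limma p under 0.05 (6.23% of all probe sets were lower and 7.3% higher at that level), and their log2 fold changes lay between -0.10 and 0.16 (limma adjusted p of 0.484 to 0.985). Only Krt10, Krt33b, Krt34, Krt72, Krt73 and Krt88 among them exceeded the 99th percentile of the olfactory receptor probe sets (5.09). The rest were barely over background, so a change in them would be hard to detect. Krt10, the type I keratin of the suprabasal epidermis, averaged 5.88 in long-term EMT cells and 5.87 in control cells, and its partner Krt1 averaged 4.60 in long-term EMT cells and 4.58 in control cells. The other keratins of differentiating layers above background were Krt12 of the cornea (4.80 in long-term EMT, 4.71 in control), Krt77 (4.93 in long-term EMT, 4.79 in control), Krt78 (4.57 in long-term EMT, 4.56 in control), Krt79 (4.99 in long-term EMT, 5.03 in control) and Krt90 (5.05 in long-term EMT, 5.00 in control). Group means in this class thus differed by 0.15 at most.

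Among hair shaft keratins, Krt33b averaged 6.64 in long-term EMT cells and 6.51 in control cells, and Krt34 5.39 in long-term EMT cells and 5.32 in control cells. The other hair shaft genes above background were Krt31 (4.53 in long-term EMT, 4.63 in control), Krt35 (4.66 in long-term EMT, 4.54 in control), Krt36 (4.62 in long-term EMT, 4.56 in control), Krt82 (4.63 in long-term EMT, 4.59 in control) and Krt84 (4.87 in long-term EMT, 4.82 in control). Among the keratins of the inner root sheath and companion layer, which surround the growing hair, these were Krt71 (4.94 in long-term EMT, 4.90 in control), Krt72 (5.25 in long-term EMT, 5.09 in control), Krt73 (5.10 in long-term EMT, 4.99 in control) and Krt75 (4.70 in long-term EMT, 4.54 in control). Krt42 averaged 4.98 in long-term EMT cells and 5.06 in control cells. The 21 keratins at or below background had log2 fold changes between -0.15 and 0.13, and 0 of them passed.

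A looser reading by overlap gave few keratins as well. All long-term EMT arrays were below all control arrays for 4 keratins (Krt7, Krt14, Krt80 and Krt32) and above them for 3 (Krt20, Krt39 and Krt72). Among all probe sets, 8.68% were lower and 10.5% higher in this way. Krt32 and Krt39 are hair keratins that were not above background, and their changes of -0.10 and 0.13 are small.

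Other genes of the filament system were read from lists of 15 other intermediate filament genes, 16 keratin linkers and 18 transcription factors known to act on keratin genes or on epithelial differentiation. Of the 15 other filament genes, 1 rose, 0 fell and the median log2 fold change was 0.09 (between 0.047 and 0.095 with an array left out). Among all probe sets, 0.993% rose and 0.928% fell. Without overlap, 4 of the 15 were higher and 0 lower, beside 10.5% and 8.68% of all probe sets. At an unadjusted limma p under 0.05, 2 were higher and 0 lower, beside 7.3% and 6.23% of all probe sets. The gene that rose was Nes (nestin, a filament protein of progenitor cells), at 4.88, 4.62 and 4.70 in long-term EMT cells, against 4.12, 4.12 and 3.77 in control cells (difference 0.73, limma adjusted p = 0.0496), although it passed in 0 of 6 fits with an array left out and its control values were below background. Vim (vimentin), the filament protein of mesenchymal cells, was at 13.21, 13.24 and 13.18 in long-term EMT cells, against 13.08, 13.11 and 13.15 in control cells. The groups did not overlap but the difference of 0.10 did not pass (limma adjusted p = 0.653).

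Of the 16 linkers, 1 rose, 2 fell and the median log2 fold change was -0.20 (-0.13 without control replicate 1). Among all probe sets, 0.993% rose and 0.928% fell. Without overlap, 6 linkers were lower and 3 higher, beside 8.68% and 10.5% of all probe sets. At an unadjusted limma p under 0.05, 5 linkers were lower and 3 higher, beside 6.23% and 7.3% of all probe sets. Ppl (periplakin), which ties keratin filaments to desmosomes, was at 5.08, 5.40 and 5.50 in long-term EMT cells, against 9.76, 8.87 and 8.83 in control cells. The groups were far apart (difference -3.83, limma adjusted p = 0.00274), and Ppl passed in 6 of 6 fits with an array left out. Dsp (desmoplakin), the main desmosomal anchor of keratins, fell by 1.03 on the log2 scale (limma adjusted p = 0.0422) but passed in 0 of 6 such fits, and its second probe set changed by -0.44 without passing. Pkp2 (plakophilin 2), another desmosomal plaque protein, was at 9.92, 10.01 and 10.02 in long-term EMT cells, against 9.13, 9.12 and 9.28 in control cells, and rose by 0.81 on the log2 scale (limma adjusted p = 0.00838, passed in 3 of 6 fits).

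Of the 18 transcription factors, 0 rose, 2 fell and 11 did not overlap between the groups, all of these lower in long-term EMT cells. Among all probe sets, 0.993% rose, 0.928% fell and 8.68% were lower without overlap. At an unadjusted limma p under 0.05, 8 of the 18 were lower and 0 higher, beside 6.23% lower and 7.3% higher of all probe sets. The median log2 fold change was -0.64, beside 0.02 over all probe sets, and it was -0.25 without control replicate 1. In that array 11 of the 18 factors were more than 0.5 log2 units above the mean of control replicates 2 and 3, and 0 were as far below it. The number of factors that fell was 4 without that array. Grhl2, a regulator of epithelial junction genes, was at 5.15, 5.05 and 4.90 in long-term EMT cells, against 8.57, 8.21 and 7.76 in control cells (difference -3.15, limma adjusted p = 0.00241, passed in 6 of 6 fits). Gata3, a factor of luminal mammary cells, was at 9.61, 9.91 and 9.74 in long-term EMT cells, against 10.88, 10.72 and 10.48 in control cells (difference -0.94, limma adjusted p = 0.0248, passed in 2 of 6 fits).

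**Figure D5:**
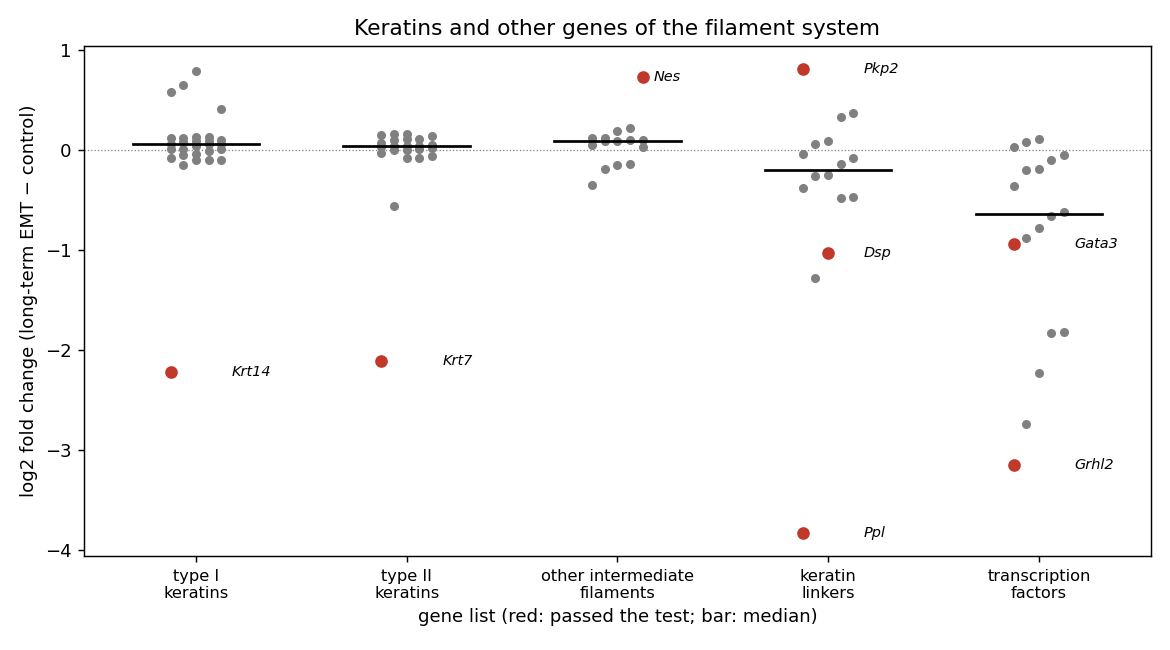
Log2 fold change (long-term EMT minus control, vertical axis) of each type I and type II keratin and of 3 related gene lists. Each point is a gene, red points passed the test and bars are medians, which were 0.06 and 0.04 for type I and type II keratins, 0.09 for other intermediate filaments, -0.20 for linkers and -0.64 for transcription factors.

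Markers of further cell types were read beside the keratins. Of the 7 luminal mammary markers measured, 2 fell (Esr1 and Gata3), beside 0.928% of all probe sets. The keratins Krt8, Krt18 and Krt19 among the 7 did not pass. The summed unlogged level of this list was 13970 to 14517 in long-term EMT arrays and 14381 to 16240 in control arrays. Most of it again comes from Krt8 and Krt18. Of 7 fibroblast markers, 0 passed the limma test (at an unadjusted p under 0.05, 1 was higher and 2 were lower, beside 7.3% and 6.23% of all probe sets). Their sum was 737 to 966 in long-term EMT arrays and 1288 to 1861 in control arrays. Most of this sum comes from Pdgfrb and Pdgfra, so it says little about the other markers. The log2 fold change was -1.31 for Pdgfrb, -0.953 for Pdgfra and -1.76 for Dcn. It was 0.617 for Col1a1, 0.187 for Col1a2, 0.05 for Lum and 0.0433 for Thy1. Of 5 leukocyte markers, 0 passed and 0 had an unadjusted limma p under 0.05, and 0 of 4 endothelial markers had a mean above background. The part of other cell types in the keratin values was not tested.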

How the data were processed

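Total RNA (150 ng per sample) was hybridized to Affymetrix MoGene-1_1-st-v1 arrays. By the authors' account, the log2 values come from RMA in Affymetrix Expression Console, whose version is not given in the sources used here, and were deposited for 35556 probe sets. They were not normalized again. RMA normalizes arrays by quantiles, so a change shared by all genes is not visible. GEO's platform annotation gave 1 symbol for 21218 probe sets, several for 1881 and none for 12457, and all 51 keratin symbols were current in RefSeq. Where a gene had several probe sets, that with the highest mean was used.

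Long-term EMT was compared with control by limma 3.58.1 (R 4.3.3), p-values were adjusted by Benjamini-Hochberg across every probe set, and the fit was tested on simulated data. Keratins that passed and those of simple, basal and stressed epithelium were named with every value, other keratins above background with group means, and genes of related lists where they passed. Vim, Epcam, Elf3, Cldn7, Krt32 and Krt39 were named after their values were seen. Keratin classes follow known tissues, with Krt88 taken as type II from its position. The members and lists were chosen with earlier results of these data known, among them the lower Krt7 and Krt14. Prlr had no probe set of its own. The number of arrays limits the precision. Alternatives covered the methods' t-test, the variance prior, normalization, a filter on dim probe sets, the fold threshold, a replicate block and leaving out each array. Equal array medians for the partner pairs, and overlap counts and medians of related lists with an array left out, were added after seeing the data.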

Additional observations from a re-analysis of the deposited data

How the results depend on the processing

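Of 433 alternative values, 374 kept their direction, their side of the threshold or their size. Krt7 passed in every alternative run, and Krt14 in all but 4, which are 3 of the 6 fits without an array (log2 fold change -2.52 to -2.02 over all 6) and the methods' t-test after adjustment (adjusted p = 0.125, and 0 type I keratins lower). Differences near 0 changed sign, with Krt8 at 0.032 when values were quantile normalized again and Krt18 at -0.018 with equal array medians, which moved the median of all probe sets by under 0.1. Leaving out each array gave -0.048 to 0.042 for Krt8, -0.04 to 0.10 for Krt18, -0.02 to 1.01 for Krt19 and -0.04 to 0.22 for Krt6a.

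Over all probe sets, the methods' t-test gave 688 lower and 638 higher, 26 and 43 after Benjamini-Hochberg adjustment, and a fold above 2 gave 194 higher. Without single arrays, 98 to 482 probe sets were lower and 107 to 472 higher. Among type I keratins 0 to 1 passed as lower, 3 to 8 keratins did not overlap as higher, and of the related genes 0 to 1 linkers were higher, 1 to 1 linkers lower, 1 to 4 transcription factors lower and 0 to 0 other filament genes higher. A background at the 99th percentile left 14 keratins. Same-numbered arrays of the 2 groups did not deviate together throughout (r = 0.188, 0.0203 and 0.249), so the numbers were not taken as pairs, and not every array correlated best with its own number. With a replicate block, 278 probe sets were lower and 256 higher, Krt7 and Krt14 still passed (adjusted p = 0.0132 and 0.0227), and Nes did not, leaving 0 other filament genes higher. The causes of these changes were not tested. For the 21 keratins at or below background, small changes cannot be measured, and for those barely over it they would be hard to detect.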
